A study of Mus musculus with 3 samples.

Results

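Glycolysis and the response to low oxygen were followed through 39 named genes in RNA sequencing of tumour and bone marrow myeloid cells. The genes were taken by mouse symbol from a list of names. Of the 39 genes, 37 were in the table of raw counts, which held 19723 genes. The remaining pair, Eno2 and P4ha2, were in the table of FPKM values alone (fragments scaled for gene length and sequencing depth, so comparable between genes), which held 23327 genes. The list divides into 23 glycolysis genes (22 with counts), which take up glucose, break it down to pyruvate and set the fate of pyruvate, and 15 oxygen-responsive genes (14 with counts), which include the oxygen-sensing enzymes Egln1 and Egln3. Hif1a itself was kept apart from both.

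All mice were female BALB/c, 6 to 8 weeks old. The first library held MDSCs (myeloid-derived suppressor cells, a mixed population known for holding back T cell responses) pooled from 20 tumours of mice treated with alisertib, an inhibitor of the mitotic kinase Aurora A. The second held MDSCs pooled from 20 tumours of control mice, which the labels describe both as untreated and as control treated. The third held neutrophils pooled from the marrow of 5 wild-type animals. Neither the labels nor the design text give the tumour line, the dose or the surface markers used for sorting. Each group was 1 library, so there was no replicate, no p-value could be had, and every difference is between pools.

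The libraries held 19373087, 21959748 and 21987097 counts in the order alisertib MDSC, control MDSC and bone marrow. All 13 neutrophil markers looked up were present in each, although their summed level was 14924 CPM (counts scaled to a library of 1000000) in alisertib MDSCs, 34356 CPM in control MDSCs and 107370 CPM in bone marrow neutrophils. T and NK cell markers (12 genes) summed to 29.3, 13.2 and 105.7 FPKM, B cell markers (8 genes) to 20.9, 3.19 and 103.1 FPKM, monocyte and macrophage markers (11 genes) to 314.7, 244.5 and 183.1 FPKM, erythroid markers (8 genes) to 6.57, 7.89 and 94.2 FPKM, and epithelial markers (9 genes) to 20.1, 16.9 and 1.36 FPKM. The T and NK sum in bone marrow was carried by Cd3d, listed at 101.9 FPKM there. More of these markers were called higher than lower in both MDSC libraries over bone marrow (7 higher and 1 lower with alisertib, 4 higher and 1 lower in control). However, Cd3e, Cd8a, Trac and Trbc2 had 2, 2, 0 and 2 counts in bone marrow. They reached 1 CPM, the level needed for a call, only in MDSC libraries, which favours higher calls. The 7 fibroblast markers in the FPKM table summed to 1.23, 0.762 and 0.182 FPKM. Among these markers, Klrb1c was listed at 0 in both MDSC libraries, Ncr1 in alisertib MDSCs, Ermap in control MDSCs, and Trac, Epcam, Krt19, Krt14, Krt5, Cldn3, Cldn4, Col1a2, Col3a1, Dcn and Pdgfra in bone marrow. In bulk samples such as these, fewer cells of a type and less RNA per cell cannot be told apart.

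As background, cells split glucose into pyruvate through a chain of enzymes, each step often served by several isozyme genes, and turn pyruvate into lactate when oxygen is short. Neutrophils are known for relying on this route, since they hold few mitochondria. When oxygen is plentiful, prolyl hydroxylases mark the HIF alpha protein for destruction. When it is scarce, HIF accumulates and raises transcription of glucose transporters, most glycolytic enzymes and a wider group of genes for mitochondrial turnover, protein folding, matrix and vessels. Hif1a is controlled mostly at the protein level, which RNA does not measure.

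Control MDSCs were first set against bone marrow neutrophils, to see how the pathway stood in the tumour without the drug. A call required that the whole 95% counting interval of a gene's ratio lay at or beyond 2-fold. Of the 37 genes with counts, 25 were called higher in control MDSCs, 3 lower and 9 were not called. Among all 13019 genes tested, 41.3% were called, 18.3% higher and 22.9% lower. The median log2 ratio was 2.25 over the 37 genes and -0.14 over all genes tested. All 37 reached 1 CPM in at least 1 library, the filter used, and Aldoc, Ankrd37 and Adm reached it only in the MDSC libraries.

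Among the listed genes, the glycolysis set had a lower median ratio than the oxygen-responsive set. Of 22 glycolysis genes, 12 were called higher in control MDSCs and 3 lower, and their median log2 ratio was 1.14. Of 14 oxygen-responsive genes, 12 were called higher and 0 lower, and their median was 2.99. The median of the glycolysis genes therefore lay 1.85 below that of the oxygen-responsive genes on the log2 scale (glycolysis minus oxygen-responsive, -1.85). This holds for the listed genes, since a wider list of 25 further oxygen-responsive genes had a median of 0.22. The groups overlapped, as 6 of 22 glycolysis genes lay above the oxygen-responsive median and 12 of 14 oxygen-responsive genes above the glycolysis median. In raw counts, the glycolysis genes took 1.87% of all counts in control MDSCs (exact interval 1.87 to 1.88%) and 1.18% in bone marrow (1.17 to 1.18%), and the oxygen-responsive genes 0.345% (0.343 to 0.348%) and 0.0826% (0.0814 to 0.0838%).

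**Figure D1:**
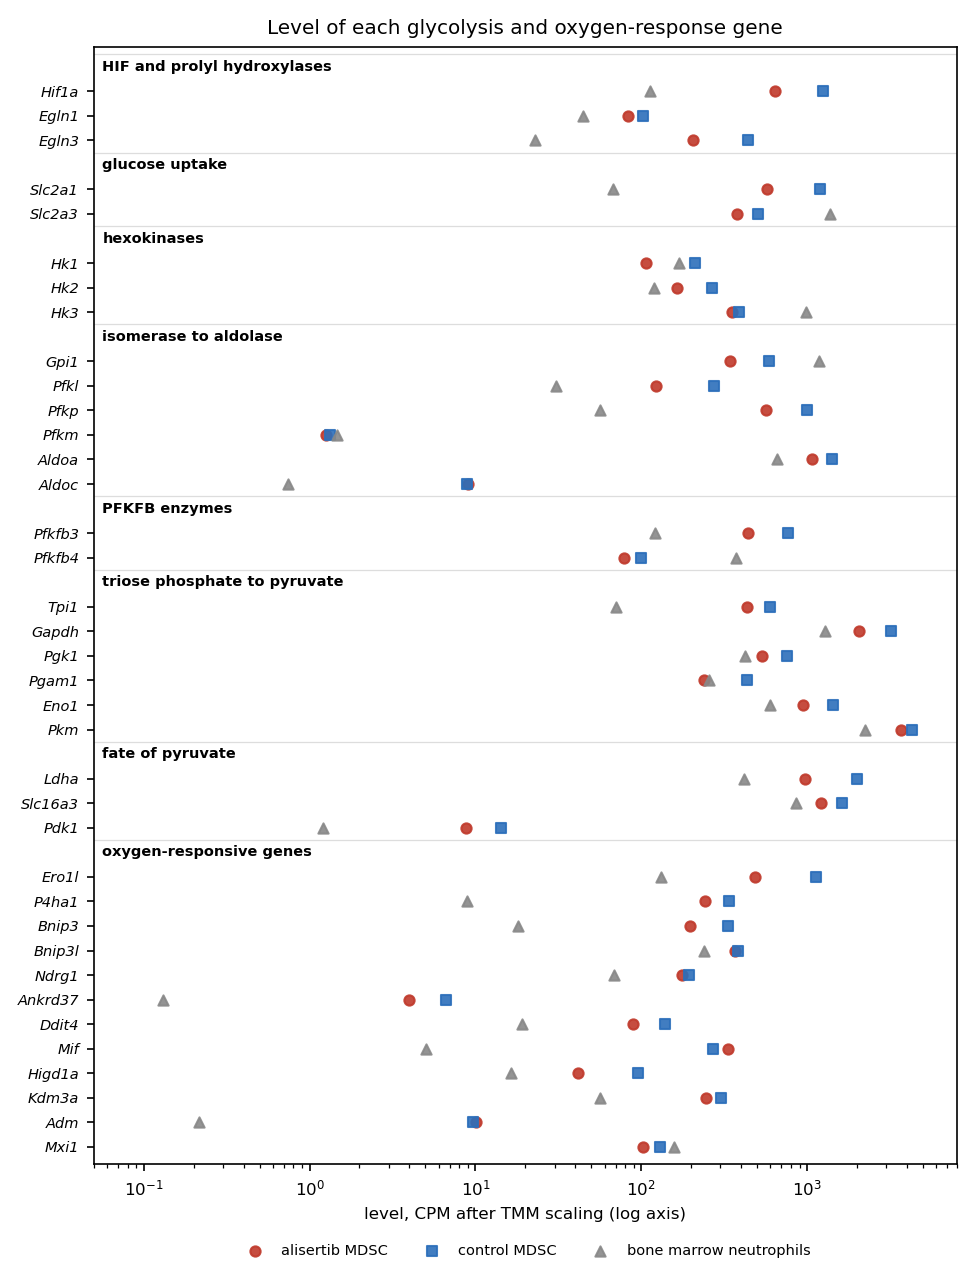
Level of the 37 genes with counts, in CPM after TMM scaling on a log axis, with a circle for alisertib MDSCs, a square for control MDSCs and a triangle for bone marrow neutrophils, 1 library each. For most genes both tumour libraries lie right of bone marrow, while Slc2a3, Hk3, Gpi1, Pfkfb4, Pfkm and Mxi1 lie left of it in both.

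The oxygen-sensing genes themselves were among those called. Hif1a (ENSMUSG00000021109, chromosome 12, 73901375 to 73947530 on the plus strand of GRCm38), encoding the oxygen-labile subunit of HIF, stood at 642.8 CPM in alisertib MDSCs, 1254 CPM in control MDSCs and 113.2 CPM in bone marrow. Its transcript was thus 11.1-fold higher in control MDSCs than in bone marrow (interval 10.6 to 11.5). Egln3, a hydroxylase that HIF is known to induce, stood at 205.4, 441.8 and 22.9 CPM in the same order, 19.3-fold higher in control MDSCs (17.7 to 21.1). Egln1, the main oxygen sensor in most tissues, stood at 82.8, 102.9 and 44.7 CPM, 2.30-fold higher (2.13 to 2.48). Egln3 thereby made up 76.6% of the summed FPKM of Egln1 and Egln3 in alisertib MDSCs and 85.0% in control MDSCs, against 40.3% in bone marrow. The related gene Egln2 lies outside the list and is not in this sum. For reference, it stood at 16.7, 16.5 and 20.1 FPKM in the same order, above both listed genes in bone marrow.

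The oxygen-responsive genes with the widest gaps were Mif and P4ha1, at high counts, and Adm and Ankrd37, at low counts. Mif, a cytokine of macrophages and other cells (chromosome 10, 75859353 to 75860240, minus strand), had 6906 counts in alisertib MDSCs, 5269 in control MDSCs and 116 in bone marrow. It was 53.6-fold higher in control MDSCs than in bone marrow (44.6 to 65.0). P4ha1, a subunit of the enzyme that hydroxylates collagen (chromosome 10, 59323296 to 59373304, plus strand), had 5052, 6610 and 204 counts and was 38.3-fold higher (33.3 to 44.2). In both genes each tumour library lay far above bone marrow. Adm, encoding the vessel-dilating peptide adrenomedullin, was 44.4-fold higher (18.7 to 138.3), at 188 counts in control MDSCs and 5 in bone marrow. Ankrd37, an ankyrin repeat gene, had 130 counts in control MDSCs and 3 in bone marrow, a ratio of 51.2 (17.1 to 251.4).

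Mitochondrial and stress genes followed with smaller ratios. Bnip3, a receptor that directs mitochondria to degradation, stood at 197.6 CPM in alisertib MDSCs, 331.6 CPM in control MDSCs and 17.9 CPM in bone marrow, 18.5-fold higher in control MDSCs than in bone marrow (16.7 to 20.5). Its relative Bnip3l, which also serves red cell maturation, stood at 368.9, 384.2 and 239.4 CPM, a ratio of 1.60 (1.55 to 1.66) that was not called. The pair therefore differed in balance, with Bnip3 at 47.7% of their summed FPKM in alisertib MDSCs, 59.5% in control MDSCs and 11.3% in bone marrow. Ero1l, which oxidises protein thiols in the endoplasmic reticulum, was 8.69-fold higher in control MDSCs (8.37 to 9.03), and Ddit4, an inhibitor of the growth kinase mTOR, 7.29-fold (6.58 to 8.08). Higd1a, a protein of the inner mitochondrial membrane, was 5.82-fold higher, the histone demethylase gene Kdm3a 5.40-fold and the stress gene Ndrg1 2.83-fold. Mxi1, an antagonist of MYC, was the exception in direction, at 101.9, 129.2 and 157.0 CPM, 1.22-fold lower in control MDSCs than in bone marrow (1.16 to 1.28) and not called. P4ha2, the sister subunit of P4ha1, was listed at 0.142 FPKM in alisertib MDSCs, 0.0639 FPKM in control MDSCs and 0 in bone marrow, and its depth is unknown.

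HIF binds a short core motif, and the start regions of the 4 genes with the largest counting bound in this comparison are shown so that its letters can be read beside the values. The genes are Mif, P4ha1, Egln3 and Slc2a1, each at 10 CPM or more in control MDSCs and with a RefSeq promoter. Each sequence runs 5′ to 3′ on the gene's strand, from 250 bases before to 50 bases after the RefSeq start (GRCm38.p6). They lie at chr10:75860228-75860527 on the minus strand for Mif, chr10:59323046-59323345 on the plus strand for P4ha1, chr12:54203825-54204124 on the minus strand for Egln3 and chr4:119108495-119108794 on the plus strand for Slc2a1. Capitals mark ACGTG or GCGTG on either strand, where the other strand reads CACGT or CACGC.
Mif: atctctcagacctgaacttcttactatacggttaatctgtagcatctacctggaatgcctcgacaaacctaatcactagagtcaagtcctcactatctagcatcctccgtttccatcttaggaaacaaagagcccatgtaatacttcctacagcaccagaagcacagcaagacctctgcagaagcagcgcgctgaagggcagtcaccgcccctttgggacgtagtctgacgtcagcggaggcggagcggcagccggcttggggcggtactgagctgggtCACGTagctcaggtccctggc
P4ha1: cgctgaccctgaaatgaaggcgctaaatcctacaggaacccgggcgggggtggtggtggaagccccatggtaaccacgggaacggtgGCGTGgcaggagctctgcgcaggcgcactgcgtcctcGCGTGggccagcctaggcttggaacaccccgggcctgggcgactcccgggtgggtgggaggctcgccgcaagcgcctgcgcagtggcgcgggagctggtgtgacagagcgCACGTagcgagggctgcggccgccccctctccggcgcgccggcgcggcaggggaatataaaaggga
Egln3: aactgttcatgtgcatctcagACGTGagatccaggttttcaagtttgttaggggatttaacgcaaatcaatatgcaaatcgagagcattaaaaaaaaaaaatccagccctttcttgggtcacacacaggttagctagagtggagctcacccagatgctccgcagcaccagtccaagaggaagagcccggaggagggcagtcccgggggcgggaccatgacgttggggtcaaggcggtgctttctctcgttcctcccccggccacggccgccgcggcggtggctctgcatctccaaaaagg
Slc2a1: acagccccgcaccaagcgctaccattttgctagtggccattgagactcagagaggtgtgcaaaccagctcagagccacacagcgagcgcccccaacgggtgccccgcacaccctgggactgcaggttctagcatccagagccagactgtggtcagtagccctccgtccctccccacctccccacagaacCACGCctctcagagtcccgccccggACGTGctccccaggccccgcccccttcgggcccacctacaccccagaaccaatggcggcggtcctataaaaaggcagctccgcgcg

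Of the 39 genes, 35 had at least 1 RefSeq promoter, 52 promoters in all. ACGTG was found in 55.8% of these promoters and GCGTG in 51.9%, against 19.6% and 32.4% of all 32851 promoters of the same length. Of 35 promoters of glycolysis genes 17 held ACGTG, and of 16 promoters of oxygen-responsive genes 11 did. The promoters of the listed genes were also richer in G and C, with a median of 62.7% against 52.7% for all promoters, and these letters prevail in both motifs. ACGTG also lies within the palindrome CACGTG, which other factors bind and which counts as a match on both strands. A match describes letters only.

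Glycolysis genes did not all differ in the same direction, and some isozymes of the same step differed in opposite directions. The listed glucose transporters are GLUT1 (Slc2a1) and GLUT3 (Slc2a3), and further carriers of the family lie outside the list. Slc2a1 (ENSMUSG00000028645, chromosome 4, 119108711 to 119137983) stood at 574.5 CPM in alisertib MDSCs, 1187 CPM in control MDSCs and 67.3 CPM in bone marrow, 17.7-fold higher in control MDSCs than in bone marrow (16.8 to 18.6). Slc2a3 ran the other way, at 379.0, 504.9 and 1378 CPM, 2.73-fold lower in control MDSCs (2.67 to 2.79). Per length, Slc2a1 made up 75.8% of the summed FPKM of both transporters in alisertib MDSCs and 82.9% in control MDSCs, against 9.16% in bone marrow. That sum was 209.95, 397.77 and 207.11 FPKM in the same order.

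The PFKFB enzymes, which make and remove the sugar phosphate that activates phosphofructokinase, showed the same kind of exchange. Pfkfb3 was 6.33-fold higher in control MDSCs than in bone marrow (6.08 to 6.60), with 9117 counts in alisertib MDSCs, 14892 in control MDSCs and 2777 in bone marrow. Pfkfb4 was 3.75-fold lower (3.56 to 3.94), with 1634, 1944 and 8597 counts. Pfkfb3 thus held 78.2% of their summed FPKM in alisertib MDSCs and 83.2% in control MDSCs, against 17.2% in bone marrow. The summed FPKM of the pair was closer between libraries than either gene, at 72.1, 118.1 and 91.4.

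Hexokinases, which trap glucose by phosphorylation, shifted less in balance, while their summed FPKM was highest in bone marrow. It was 131.9 in alisertib MDSCs, 170.4 in control MDSCs and 304.4 in bone marrow. Hk3, the isozyme known from myeloid cells, stood at 352.8 CPM in alisertib MDSCs, 388.7 CPM in control MDSCs and 987.6 CPM in bone marrow, 2.54-fold lower in control MDSCs than in bone marrow (2.48 to 2.61). Hk2, the inducible isozyme, was 2.25-fold higher (2.15 to 2.36), and Hk1 was 1.25-fold higher (1.20 to 1.31) and not called. Hk3 still led in every library, with 70.6% of the summed hexokinase FPKM in alisertib MDSCs, 60.3% in control MDSCs and 87.1% in bone marrow.

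**Figure D2:**
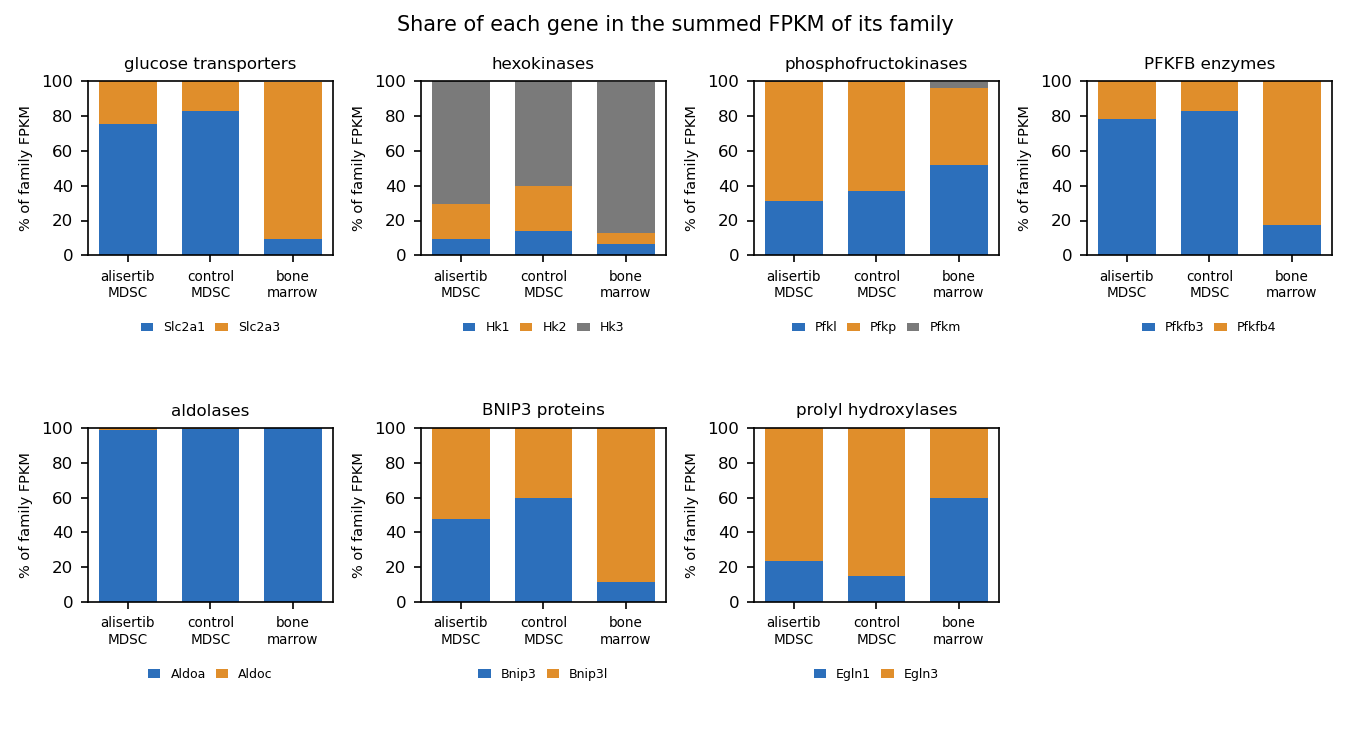
Share of each gene in the summed FPKM of the listed genes of its family, as stacked bars in percent for alisertib MDSCs, control MDSCs and bone marrow neutrophils, 1 library each. Slc2a1 and Pfkfb3 hold between 75.8% and 83.2% of their family in both tumour libraries, and 9.16% and 17.2% in bone marrow, and Aldoa holds nearly all aldolase FPKM in each library.

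Phosphofructokinase, the committed step, differed most in total. The summed FPKM of Pfkl, Pfkp and Pfkm was 86.2 in alisertib MDSCs, 164.1 in control MDSCs and 13.3 in bone marrow. Pfkp, the platelet form, was 17.7-fold higher in control MDSCs than in bone marrow (16.7 to 18.7) and Pfkl, the liver form, 8.95-fold (8.27 to 9.69). Pfkm, the muscle form, had only 26, 26 and 34 counts, and no difference was detectable at this depth. Gpi1, the isomerase just before this step, stood at 341.1, 592.0 and 1170.4 CPM, 1.98-fold lower in control MDSCs than in bone marrow (1.93 to 2.02) and just short of a call. Aldoa, the main aldolase, was 2.16-fold higher (2.12 to 2.20), and the minor form Aldoc, with 187, 175 and 17 counts, 12.2-fold (7.38 to 21.4).

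Enzymes of the later steps were more even. Pkm, pyruvate kinase, was the most abundant of the listed genes per length in every library, at 1367 FPKM in alisertib MDSCs, 1610 FPKM in control MDSCs and 846.1 FPKM in bone marrow. Its ratio of 1.93 between control MDSCs and bone marrow (1.91 to 1.95) was not called, nor were the log2 ratios of the glycolytic enzymes Pgk1 (0.85) and Pgam1 (0.77) and of the lactate exporter Slc16a3 (0.93). Gapdh stood at 2063 CPM in alisertib MDSCs, 3197 CPM in control MDSCs and 1276 CPM in bone marrow, 2.51-fold higher in control MDSCs (2.47 to 2.54), and Eno1 was 2.40-fold higher (2.36 to 2.45). Both have near-identical copies that could share reads, which for Gapdh held 6485, 9994 and 4744 counts and for Eno1 8704, 12969 and 6190. With the copies added, the log2 ratios were 1.32 for Gapdh and 1.28 for Eno1, and both were still called. Tpi1, triose phosphate isomerase, stood apart from its neighbours at 8.58-fold higher (8.15 to 9.05), with 9023 counts in alisertib MDSCs, 11722 in control MDSCs and 1613 in bone marrow. Eno2, the neuronal enolase, was listed at 3.51 FPKM in alisertib MDSCs, 4.24 FPKM in control MDSCs and 0.00911 FPKM in bone marrow.

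At the end of the pathway, Ldha, which turns pyruvate into lactate (ENSMUSG00000063229, chromosome 7, 46841475 to 46855627), stood at 968.1 CPM in alisertib MDSCs, 1987 CPM in control MDSCs and 416.3 CPM in bone marrow. It was 4.77-fold higher in control MDSCs than in bone marrow (4.67 to 4.88). Pdk1, a kinase that keeps pyruvate out of the mitochondria, was 11.8-fold higher (8.00 to 18.1), from 183, 280 and 28 counts in alisertib MDSCs, control MDSCs and bone marrow.

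With total counts in place of scaled library sizes, Egln1, Hk2, Aldoa and Eno1 were no longer called higher in control MDSCs than in bone marrow, Gpi1 was called lower, and the median log2 ratio of all genes moved to -0.39. Markers of other cells and stages moved in the same comparison. Of the 13 neutrophil markers 10 were called lower in control MDSCs than in bone marrow, as were all 7 erythroid markers past the filter. The 3 neutrophil markers not called were S100a8, S100a9 and Csf3r. Csf3r stood at 1725 CPM in alisertib MDSCs, 2226 CPM in control MDSCs and 2368 CPM in bone marrow. Among markers past the filter, 5 of 10 for monocytes and macrophages (2 lower) and 4 of 10 for T and NK cells (1 lower) were called higher. So were 2 of 3 epithelial markers (none lower). Cd3e, Cd8a, Trac, Trbc2, Epcam and Krt18 reached the 1 CPM filter only in MDSC libraries, which favours higher calls over bone marrow. Mitochondrial transcripts took 0.776% of counts in control MDSCs against 0.265% in bone marrow. The 8 B cell markers were all called lower, and Elane and Mpo, enzymes of immature neutrophils, had 5 and 15 counts in control MDSCs against 736 and 1198 in bone marrow. Their part in the result was not tested.

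Alisertib and control MDSCs were compared next, to see whether the drug went with a different state of the pathway. The listed genes were mostly lower with alisertib, by modest ratios. Of 37 genes, 6 were called lower, none higher and 31 were not called, where 2.98% of all 13019 genes tested were called, 1.18% lower and 1.8% higher. Among the 7694 genes at 10 CPM or more, a level that 34 of the 37 reached, 1.62% were called lower. The median log2 ratio was -0.60 over the 37 genes and 0.0014 over all genes, with 34 of 37 ratios below 0, against 49.9% of all genes tested. Scaling matters here, because total counts raised every log2 ratio of this comparison by 0.27. None of the 6 genes was then called, the median of the 37 genes was -0.33 and that of all genes 0.27. Among all called genes, the share higher with alisertib was 60.3%, or 84.0% with total counts. With the 10 CPM filter it was 34.5%, from 66 genes called higher and 125 lower.

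The 6 called genes lay at different points of the pathway. Ero1l stood at 481.6 CPM in alisertib MDSCs and 1137 CPM in control MDSCs, 2.36-fold lower with alisertib (2.31 to 2.42). Higd1a stood at 41.6 and 95.7 CPM, 2.30-fold lower (2.12 to 2.495). Pfkl stood at 122.8 and 273.1 CPM, 2.23-fold lower (2.12 to 2.33). These 3 genes serve protein folding, the mitochondrion and the committed glycolytic step. Egln3 was 2.15-fold lower with alisertib (2.07 to 2.23), Slc2a1 2.07-fold (2.02 to 2.11) and Ldha 2.05-fold (2.02 to 2.09). Each of the 6 was still above its bone marrow level in alisertib MDSCs, by 8.97-fold for Egln3, 8.54-fold for Slc2a1, 4.02-fold for Pfkl, 3.68-fold for Ero1l, 2.53-fold for Higd1a and 2.33-fold for Ldha.

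Hk1 and Hif1a lay just short of a call. Hk1 had 2221 counts in alisertib MDSCs and 4102 in control MDSCs, 1.96-fold lower (1.86 to 2.07). Hif1a had 13343 and 24493 counts, 1.95-fold lower (1.91 to 1.99). Pgam1 (1.83-fold), Pfkp (1.75-fold), Gpi1 (1.74-fold) and Pfkfb3 (1.74-fold) were lower as well, with whole intervals short of 2-fold. Gapdh, often used as a reference transcript, was 1.55-fold lower (1.53 to 1.57) in alisertib MDSCs.

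Bnip3 (1.68-fold), Ankrd37 (1.66-fold), Hk2 (1.63-fold), Pdk1 (1.63-fold), Ddit4 (1.56-fold) and Eno1 (1.51-fold) were also lower with alisertib than in control MDSCs and not called. Some genes differed little. Pkm stood at 3658 CPM in alisertib MDSCs and 4296 CPM in control MDSCs, 1.17-fold lower (1.16 to 1.19), but its log2 ratio was 0.04 with total counts. Hk3 (log2 ratio -0.14), Bnip3l (-0.06), Ndrg1 (-0.14) and Pfkm (-0.09) also turned positive with total counts, at 0.13, 0.21, 0.13 and 0.18. Aldoc and Adm had ratios of 1.01 (0.814 to 1.24) and 1.04 (0.851 to 1.27). Mif alone had an interval wholly above 1, at 332.7 CPM in alisertib MDSCs and 269.7 CPM in control MDSCs, 1.23-fold higher (1.19 to 1.28) and not called. With this scaling no other of the 37 genes had an interval that placed alisertib MDSCs above control MDSCs.

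Glycolysis and oxygen-responsive genes lay closer together in this comparison, though whether the gap differs from that against bone marrow was not tested. The median log2 ratio was -0.61 for 22 glycolysis genes, of which 3 were called lower, and -0.41 for 14 oxygen-responsive genes, of which 3 were called lower. The difference of the medians was -0.21, or -0.32 with the 10 CPM filter, small beside the range within either group, which ran over -1.15 to 0.01 for glycolysis genes and -1.24 to 0.30 for oxygen-responsive genes. The share of counts was 1.53% in alisertib MDSCs (exact interval 1.52 to 1.53%) and 1.87% in control MDSCs for glycolysis genes, and 0.276% (0.274 to 0.279%) and 0.345% for oxygen-responsive genes.

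**Figure D3:**
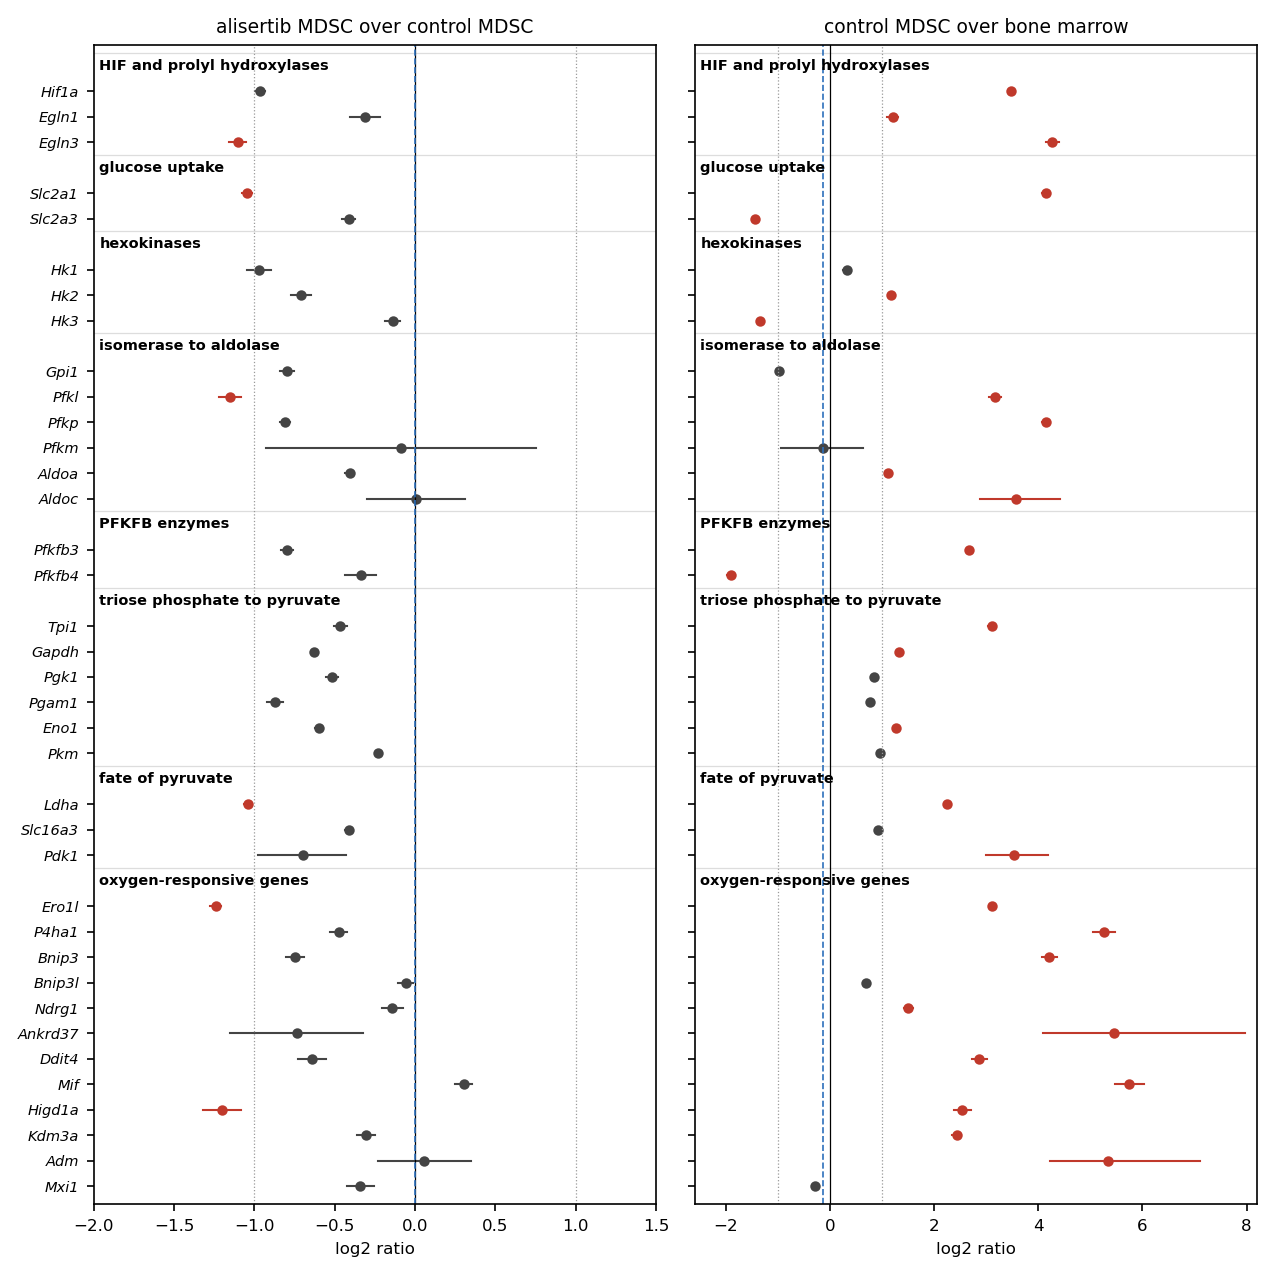
Log2 ratio of each gene with its 95% counting interval, for alisertib over control MDSCs (left) and control MDSCs over bone marrow neutrophils (right), which share the control library. Red marks genes whose bound nearest to 1 is at least 2-fold, dotted lines mark 2-fold and the dashed line is the median of all genes tested. On the left 34 of 37 points lie below 0, and on the right 31 of 37 lie above 0.

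Markers of other cells moved in the same comparison. Of the 13 neutrophil markers, 7 were called lower with alisertib and none higher. Of 10 T and NK markers past the filter 6 were called higher, and all 10 summed to 45.8 CPM in alisertib MDSCs and 19.3 CPM in control MDSCs. Of these 10 markers, Cd3e, Cd8a and Trac reached the 1 CPM filter only in alisertib MDSCs, which favours higher calls. Of 8 B cell markers 6 were called higher, and all 8 summed to 44.8 and 6.35 CPM. None of 10 monocyte and macrophage markers past the filter was called. Ribosomal protein genes took 1.12% of counts in alisertib MDSCs and 0.815% in control MDSCs, and mitochondrial transcripts 0.684% and 0.776%. The part of these differences in the lower glycolysis levels was not tested.

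Alisertib MDSCs set against bone marrow share a library with each comparison above, so their values are given only beside them. Of the 37 genes, 20 were called higher in alisertib MDSCs and 4 lower, where 41.0% of all genes were called, 18.7% higher and 22.3% lower. The median log2 ratio was 1.34, with 0.68 for glycolysis genes and 2.17 for oxygen-responsive genes, a difference of -1.49. Egln1, Hk2, Aldoa, Gapdh and Eno1, called higher in control MDSCs, had ratios of 1.85, 1.38, 1.63, 1.62 and 1.59 in alisertib MDSCs and were not called. Gpi1 was called lower in alisertib MDSCs, 3.43-fold (3.34 to 3.52), beside Slc2a3 (3.64-fold), Hk3 (2.80-fold) and Pfkfb4 (4.73-fold). Hk1 lay at 107.0 CPM in alisertib MDSCs and 168.1 CPM in bone marrow, and Pgam1 at 237.5 and 254.8 CPM. Both genes were thus below bone marrow in alisertib MDSCs and above it in control MDSCs.

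Branches of glucose metabolism outside the list were read from lists of related genes, whose counts stand beside the shares of all genes tested, 18.3% called higher and 22.9% lower in control MDSCs than in bone marrow, and 1.8% higher and 1.18% lower with alisertib. The pentose phosphate route, which supplies NADPH for the oxidative burst of neutrophils, was lower in control MDSCs than in bone marrow. Of its 8 genes 5 were called lower and none higher, all 8 ratios lay below 1, and the median log2 ratio was -1.85. Tkt, transketolase, stood at 96.8 CPM in alisertib MDSCs, 210.8 CPM in control MDSCs and 1290.0 CPM in bone marrow, 6.12-fold lower in control MDSCs (5.92 to 6.33). G6pdx, which opens the route, stood at 105.4, 125.0 and 551.4 CPM, 4.41-fold lower (4.22 to 4.61). H6pd, its counterpart in the endoplasmic reticulum, was 17.9-fold lower (15.1 to 21.4) and Pgls, the lactonase, 4.51-fold (3.98 to 5.13). With alisertib only Tkt was called in this list, 2.18-fold lower than in control MDSCs (2.06 to 2.30).

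Glycogen genes were split. Of 15 genes past the filter, 5 were called higher and 5 lower in control MDSCs than in bone marrow, with a median log2 ratio of -0.65. Pygl, the liver form of the enzyme that breaks glycogen down, stood at 133.5 CPM in alisertib MDSCs, 374.7 CPM in control MDSCs and 1899 CPM in bone marrow, 5.07-fold lower in control MDSCs (4.94 to 5.20). The muscle form Pygm ran the other way, 9.43-fold higher (7.53 to 12.0), at 37.2, 35.2 and 3.73 CPM. Ppp1r3b, which targets a phosphatase to glycogen, was 4.36-fold higher. With alisertib Gyg, the glycogen primer, was 3.22-fold lower than in control MDSCs (2.94 to 3.53), Pygl 2.81-fold and Ppp1r3b 2.16-fold, and none of the 15 was called higher.

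Partners of HIF and further genes known to answer low oxygen were read in the same way. Of 12 genes of the HIF and VHL machinery past the filter, Tceb1, an elongin of the VHL complex, was called higher in control MDSCs than in bone marrow (2.21-fold), and Hif1an, which blocks the HIF coactivator contact, and the coactivator gene Ep300 were called lower (2.59-fold and 2.27-fold). None was called between alisertib and control MDSCs. Among 25 further oxygen-responsive genes past the filter, 10 were called higher in control MDSCs than in bone marrow and 4 lower, with a median log2 ratio of 0.22, where 41.3% of all genes were called. They included Fam162a (37.7-fold higher, 31.1 to 46.2), the adenylate kinase gene Ak4 (36.1-fold, 15.2 to 112.9) and the repressor gene Bhlhe40 (10.1-fold). With alisertib 2 of the 25 were called, both lower than in control MDSCs, among them Anxa1 (2.94-fold). Unlike the genes named above, Anxa1 was highest in bone marrow, at 229.65 CPM in alisertib MDSCs, 674.02 CPM in control MDSCs and 5064.5 CPM in bone marrow. Vegfa, the vessel growth factor that HIF is best known for, is given here for reference although the naming rule did not select it, at 311.3 CPM in alisertib MDSCs, 325.0 CPM in control MDSCs and 59.5 CPM in bone marrow.

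**Figure D4:**
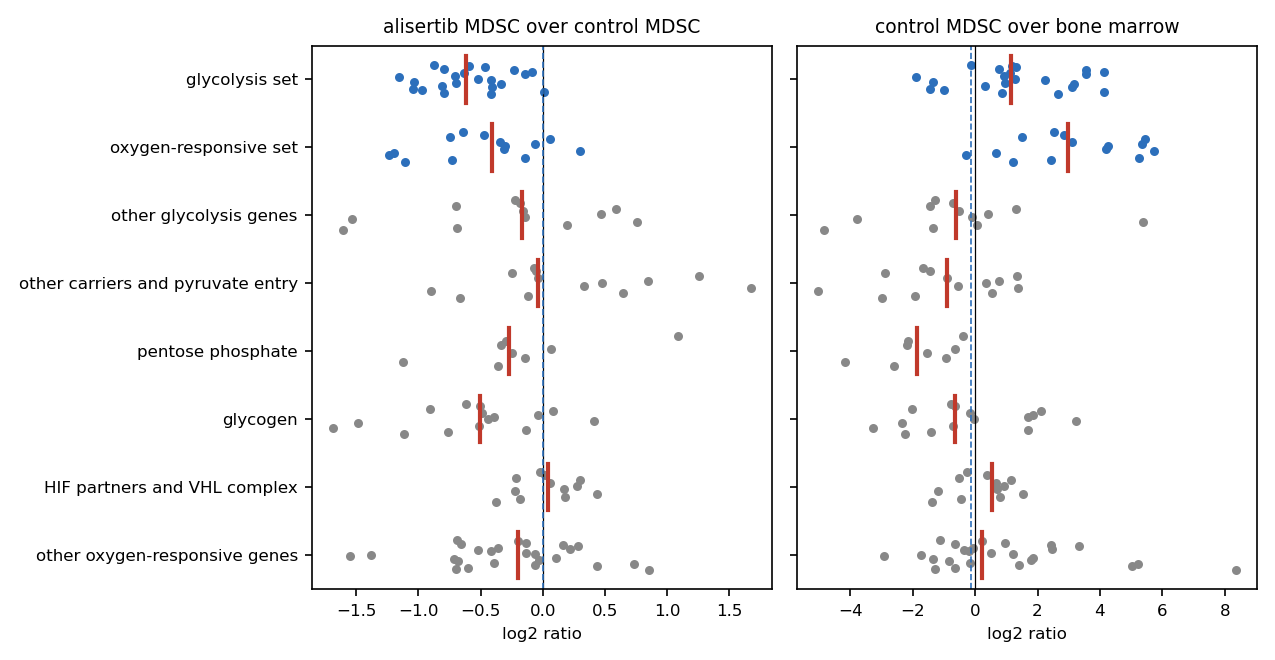
Log2 ratio of single genes past the filter, by list, for alisertib over control MDSCs (left) and control MDSCs over bone marrow neutrophils (right). Each point is a gene, the red bar is the list median and the dashed line the median of all genes tested. On the right the pentose phosphate genes lie below 0 and the oxygen-responsive set has the highest median, 2.99.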

How the data were processed

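RNA was sequenced from 3 pooled sorts, 1 library per group. The authors deposited raw read counts per gene and FPKM values. CASAVA 1.8, STAR 2.5.1b, mm9 and mm10 appear, without roles, per the submitters' processing notes. Counting tool, annotation and strand setting were not given in the sources used here, so overlapping genes are uncertain. Symbols and positions came from GENCODE M21 (GRCm38), which named 19648 of 19723 genes. Promoters are from RefSeq.

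Scaling was by TMM in edgeR 4.0.16 under R 4.3.3, whose factors were 1.0715 for alisertib, 0.88952 for control and 1.0492 for bone marrow. Genes at 1 CPM in at least 1 library were kept. Log2 ratios used an offset of 0.5 counts. Intervals are exact (Clopper-Pearson, SciPy 1.17.1) and cover counting error only, as reads are not independent molecules. Near-identical copies were transcripts with 95% identity over 200 bases (BLAST 2.17.0). The procedure was checked on simulated counts that carried counting error only. That check covers neither variation between pools nor planted ratios close to 2-fold. Members, gene lists and tests were chosen with earlier results of these data known. Of the related lists, up to 4 called genes per comparison could be named, those with the largest bound nearest to 1. Single values of some genes of these lists are not reported here.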

Additional observations from a re-analysis of the deposited data

How the results depend on the processing

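With 1 library per group no replicate could be left out. No paired analysis was possible because each group had a single library. The 37 genes were recomputed under 8 alternatives. With total counts, 0 genes were called lower in alisertib than control MDSCs (6 in the main analysis), since this scaling moves all ratios by 0.27. The median log2 ratio of that comparison was -0.33 with total counts, -0.65 with DESeq2 size factors (DESeq2 1.42.0), -0.52 with FPKM plus 0.1 and -0.47 with FPKM plus 1. The glycolysis minus oxygen-responsive difference was -0.32 with the 10 CPM filter. For control MDSCs over bone marrow the median was 2.02 with total counts, 2.335 with DESeq2 size factors, 1.88 with the 10 CPM filter and 1.395 with FPKM plus 1, and the difference of the medians was -1.72 with the 10 CPM filter, -1.69 with FPKM plus 0.1 and -1.28 with FPKM plus 1. For alisertib MDSCs over bone marrow FPKM plus 1 gave a median of 1.185 and a difference of -1.15. DESeq2 size factors added Pkm (log2 ratio 1.03) to the genes called higher in control MDSCs than in bone marrow and turned Aldoc to -0.05 between alisertib and control MDSCs. The remaining counts of calls stayed within 1.5 times the main count. Among all called genes between alisertib and control MDSCs, 34.5% were higher with the 10 CPM filter, against 60.3%. Depth limits Pfkm, at 26 counts in each MDSC library, and Ankrd37 and Adm, at 3 and 5 counts in bone marrow.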

Other observations

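A few genes of glycolysis outside the list differed widely between tumour and bone marrow, although the list as a whole did not stand above the background. Adpgk, which phosphorylates glucose with ADP in place of ATP, stood at 25.2 CPM in alisertib MDSCs, 73.1 CPM in control MDSCs and 2115 CPM in bone marrow. It was 28.9-fold lower in control MDSCs than in bone marrow (27.4 to 30.5) and 2.90-fold lower in alisertib than control MDSCs (2.62 to 3.21). In bone marrow its level per length, 846.8 FPKM, was close to that of Pkm, 846.1 FPKM. Galm, which converts the ring forms of galactose and glucose, had 66, 41 and 681 counts in alisertib MDSCs, control MDSCs and bone marrow. Hkdc1, a hexokinase relative, had 31 and 17 counts in the MDSC libraries and 0 in bone marrow. Of the 12 genes of this list past the filter, 2 were called higher and 2 lower in control MDSCs than in bone marrow, a share below the 41.3% of all genes called, and 1 lower in alisertib than control MDSCs.

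Among carriers and enzymes of pyruvate entry, Slc16a1, the lactate carrier MCT1, was called higher in alisertib than control MDSCs, against the direction of the listed genes. It stood at 26.4 CPM in alisertib MDSCs, 11.1 CPM in control MDSCs and 4.25 CPM in bone marrow, 2.39-fold higher with alisertib (2.04 to 2.81). It is also expressed by lymphocytes, whose markers were higher in the same library, and their part in this ratio was not tested. Of 13 genes of this list past the filter, 2 were called higher and 5 lower in control MDSCs than in bone marrow, against 18.3% and 22.9% of all genes. The mitochondrial pyruvate carrier gene Mpc2 was 3.84-fold lower (3.47 to 4.27), the urate and hexose carrier gene Slc2a9 7.97-fold (5.59 to 11.7), and Pdk2, at 5 counts in control MDSCs and 48 in bone marrow, 8.13-fold (3.25 to 26.2). Slc16a7 had 2 counts in control MDSCs and 96 in bone marrow.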
